A study of Mus musculus with 12 samples.

Results

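The 10 genes described are Atf4, which encodes a transcription factor, its target Trib3, and 8 genes of aspartate, asparagine, serine and one-carbon metabolism: Got1, Got2, Asns, Phgdh, Psat1, Psph, Shmt2 and Mthfd2. They were chosen by symbol, as 10 of 16860 genes tested, with earlier results of these arrays known, the low Got1 value at passage 10 among them. Of several array rows of a gene, the row selected was the one with the highest mean over the 12 arrays. The cells were Kit-enriched bone marrow cells of Tet2fl/fl;CreER mice, made to express the leukemia fusion protein AML1-ETO from the retrovirus MigR1-AE-IRES-GFP, replated in methylcellulose and then grown in suspension with SCF, IL-3 and IL-6. Exposure to 200 nM 4-OHT, which activates CreER, for 2 passages (4 days) gave the cultures labelled Tet2-/-, and ethanol gave those labelled Tet2fl/fl. From each, CD16/32+ cells that were GFP+, Gr1- and CD11b- were sorted at passage 2 and at passage 10, and their RNA was hybridised to arrays of the type GeneChip Mouse Gene ST 2.0, 3 for each of the 4 groups. All 12 samples carried AML1-ETO and CreER, and only those labelled Tet2-/- had been given 4-OHT, so that effects of 4-OHT or active Cre cannot be told apart from those of Tet2 loss. The labels do not say whether replicates were separate cultures or separate mice, so p-values measure only the spread between these arrays, which may be technical.

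ATF4 is a basic leucine zipper factor whose translation rises when kinases that sense missing amino acids, heme, double-stranded RNA or misfolded protein phosphorylate the translation factor eIF2 alpha. It binds, with C/EBP partners, short elements in genes of amino acid synthesis and import, and much of its control is at translation, which an array of RNA does not read. Cytosolic and mitochondrial aspartate aminotransferases (Got1 and Got2) exchange amino groups between glutamate and aspartate and form part of the malate-aspartate shuttle, asparagine synthetase (Asns) uses aspartate, and the serine pathway (Phgdh, Psat1, Psph) feeds the mitochondrial folate enzymes Shmt2 and Mthfd2, which supply one-carbon units for nucleotides in dividing blood cells.

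The stretches upstream of the 3 genes that passed a test below with or without the replicate number as a block are shown because 2 of them, Got1 and Asns, hold the core of the element that ATF4 binds with C/EBP partners. Each is the 250 bases before the RefSeq start in build GRCm38.p6, written 5′ to 3′ along the gene's strand, with the core TGATGNAA or its other strand TTNCATCA in capitals.
Got1, chr19:43524606-43524855, minus strand: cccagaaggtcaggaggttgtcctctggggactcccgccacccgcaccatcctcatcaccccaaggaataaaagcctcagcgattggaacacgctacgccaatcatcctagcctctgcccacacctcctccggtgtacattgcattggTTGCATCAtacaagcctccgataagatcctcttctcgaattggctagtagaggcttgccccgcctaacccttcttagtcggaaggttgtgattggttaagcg
Asns, chr6:7693210-7693459, minus strand: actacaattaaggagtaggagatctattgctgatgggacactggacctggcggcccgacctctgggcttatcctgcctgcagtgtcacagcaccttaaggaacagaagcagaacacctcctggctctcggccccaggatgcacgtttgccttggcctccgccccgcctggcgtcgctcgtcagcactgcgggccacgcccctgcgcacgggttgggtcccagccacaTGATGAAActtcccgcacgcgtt
Mthfd2, chr6:83317605-83317854, minus strand: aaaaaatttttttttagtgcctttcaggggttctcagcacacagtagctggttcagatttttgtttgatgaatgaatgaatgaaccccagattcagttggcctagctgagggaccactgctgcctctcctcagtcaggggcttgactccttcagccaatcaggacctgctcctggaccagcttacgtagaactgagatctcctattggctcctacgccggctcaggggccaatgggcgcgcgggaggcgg
In Got1 the core lay 102 bases before the start, as TTGCATCA, and in Asns 23 bases before it, as TGATGAAA. In the Mthfd2 window these letters were not found, which says nothing more than that. RefSeq gave a window of 300 bases (250 before to 50 after the start) for all 10 genes, 11 windows in all with 2 for Psat1, and 3 of the 11 held the core. Trib3 was the last of these, and there it began at base 15 after the start (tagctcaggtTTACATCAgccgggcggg). Of 32851 windows of that length over all genes, 3.97% held it. The 11 windows held 11 to 30 CpG, against a median of 7 over all windows, and 41.4% of all windows held at least 11. A match is a description of letters and was not tested for binding.

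The arrays had medians of 5.57 to 5.68 on the deposited log2 scale and correlated at 0.984 to 0.991 within groups. The row of Tet2 itself read 9.89 to 10.08 in Tet2fl/fl and 9.89 to 9.98 in Tet2-/- at passage 2, and 9.80 to 9.93 and 9.64 to 9.93 at passage 10, with genotype differences of -0.03 (SE 0.09, adjusted p = 0.952) and -0.05 (SE 0.09, adjusted p = 0.921). Which part of the gene this row reads is not given in the sources used here, so it does not check the deletion, and genotypes below are those of the labels. Of the progenitor markers, all 9 were measured and their mean level was 10.70 to 11.75 over the 12 arrays, whereas the mean of the 6 measured lymphoid markers was 6.79 to 7.19 and that of the 3 measured erythroid markers 5.90 to 6.34. Monocyte and macrophage markers (5 of 7 measured) had mean levels of 8.92 to 9.67 and megakaryocyte markers (5 of 7) of 7.68 to 8.80. The mast cell and basophil markers (13 of 14 measured, Il1rl1 not) had mean levels of 10.22 to 11.17, so the sorted cells carried these transcripts as well. In bulk RNA, fewer cells of a type and less RNA per cell cannot be told apart.

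Got1 had the largest genotype differences of the 10 genes, lower in Tet2-/- at both passages, and it also fell from passage 2 to 10 in Tet2-/- cells. The largest passage differences were those of Asns. Mthfd2 was lower on every Tet2-/- array than on every Tet2fl/fl array of the same passage. Of all genes, 3.91% did not overlap between genotypes at both passages in the same direction. Asns was lower on the arrays of passage 10 than on those of passage 2 within each genotype, as were Got1 and Got2. Between passages 14.5% of all genes did not overlap in Tet2fl/fl and 28.3% in Tet2-/-. Mthfd2, averaged over both passages, had an adjusted p of 0.0516, and 0.0359 with the replicate number as a block. Asns between passages in Tet2-/- had 0.108, and 0.0218 with the block, so neither passed without the block. The other 7 genes passed no test with or without the block. Atf4 itself differed by at most 0.16 on the log2 scale in any of the 4 comparisons. Tests are limma's moderated test on one mean per group over all 12 arrays, adjusted with Benjamini-Hochberg over 16860 genes, and a gene is said to pass at an adjusted p under 0.05. Because arrays with the same replicate number deviate together, values from a fit with that number as a block are given where the call differs. The comparisons share arrays, so they are not independent of each other.

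**Figure D1:**
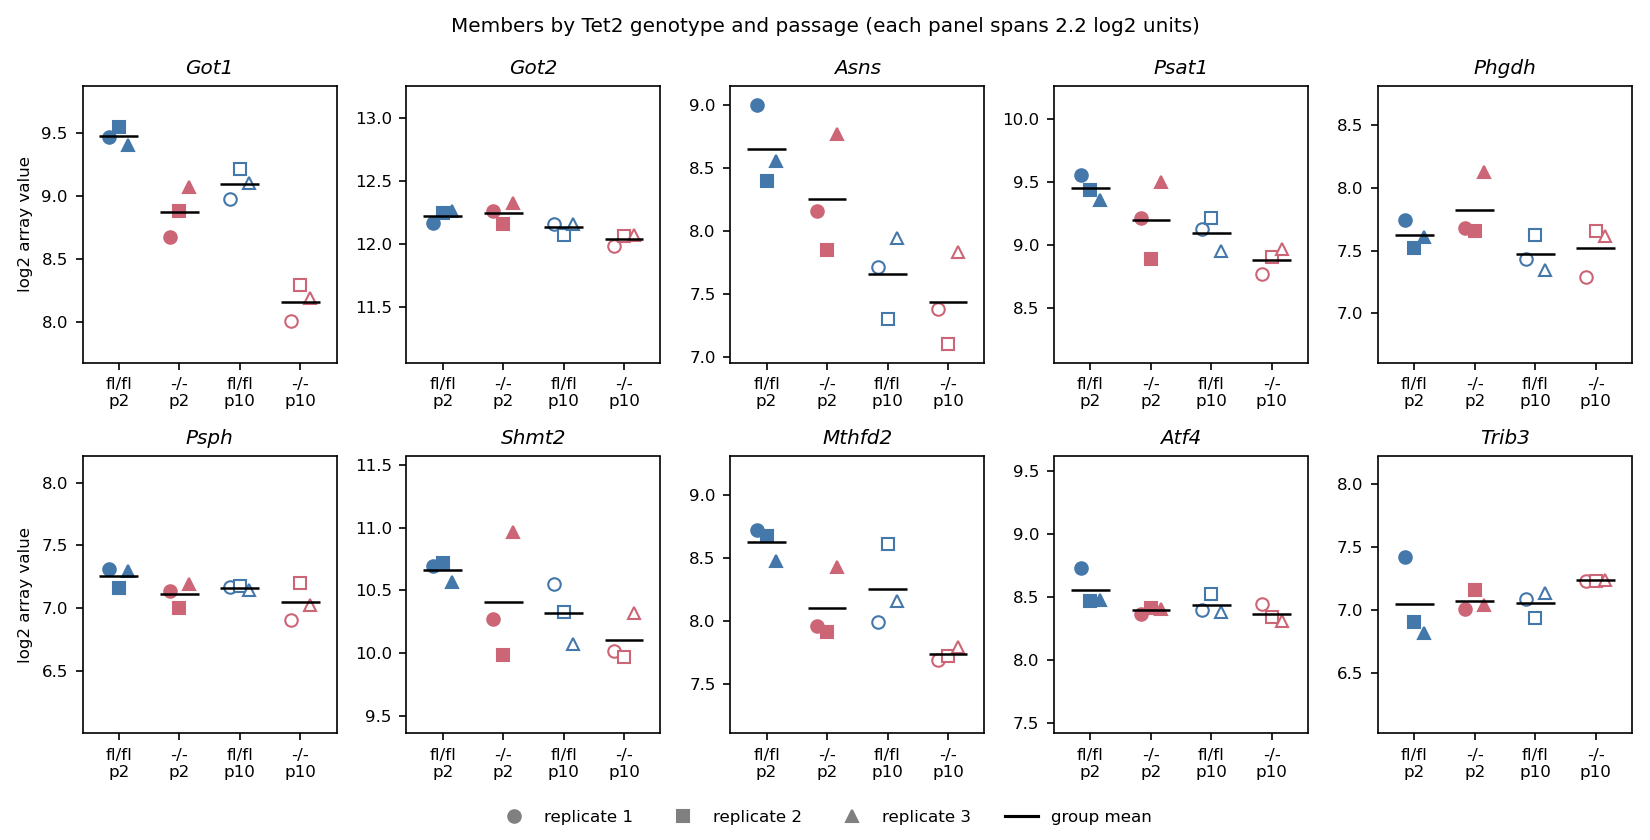
Log2 array values (vertical axis, each panel spanning the same range) of the 10 genes in the 4 groups of genotype and passage; symbols give the replicate number and bars the mean of 3 arrays. In the Got1 panel the 3 Tet2-/- arrays of passage 10 lie between 8.004 and 8.29, below the 3 Tet2fl/fl arrays of that passage (8.97 to 9.22).

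Got1, the cytosolic aspartate aminotransferase, read 9.47, 9.55 and 9.40 on the Tet2fl/fl arrays of passage 2 (replicates 1, 2 and 3) and 8.67, 8.88 and 9.07 on the Tet2-/- arrays. At passage 10 it read 8.97, 9.22 and 9.11 in Tet2fl/fl and 8.004, 8.29 and 8.19 in Tet2-/-. The genotypes did not overlap at either passage, and every Tet2-/- array of passage 10 was below every other array of the study. The group means were 9.47 ± 0.071, 8.88 ± 0.20, 9.10 ± 0.12 and 8.16 ± 0.14 in the same order of groups (SD, n = 3). At passage 10 Got1 fell in Tet2-/- by 0.94 on the log2 scale (SE 0.11, 95% interval -1.19 to -0.69, 1.92-fold, adjusted p = 0.00729), and it stayed past the threshold without any 1 of the 12 arrays (adjusted p = 0.00821 to 0.0409). In a fit on the 6 arrays of passage 10 alone the same difference had an adjusted p of 0.102. At passage 2 the difference was -0.60 (SE 0.11, adjusted p = 0.135), which passed with the replicate block (adjusted p = 0.0418). That call with the block held in 3 of 12 fits that each left out 1 array, those without Tet2fl/fl passage 10 replicate 1, Tet2fl/fl passage 10 replicate 3 or Tet2-/- passage 10 replicate 1, and adjusted p was 0.0508 to 0.198 in the other 9.

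Averaged over both passages, Got1 fell in Tet2-/- by 0.77 (SE 0.08, adjusted p = 0.00186), and it was lower in 6 of 6 pairs of the same replicate number, by values from -0.97 to -0.33. Within passage 10 the 3 pairs differed by -0.97 to -0.92, and within passage 2 by -0.80 to -0.33. The genotype difference at passage 10 minus that at passage 2 was -0.34 (95% interval -0.70 to 0.02, limma adjusted p = 0.999), so a larger difference at the later passage was not shown. From passage 2 to 10 Got1 fell in Tet2-/- cells by 0.71 (SE 0.11, 1.64-fold, adjusted p = 0.0257; 0.00881 with the block). Without the block this call was lost without Tet2-/- passage 2 replicate 1 (adjusted p = 0.0746) or replicate 3 (0.0845), and without Tet2-/- passage 10 replicate 1 (0.0658), 2 (0.0762) or 3 (0.0619). With the block it held in all 12 such fits (adjusted p = 0.00693 to 0.041). In Tet2fl/fl the passage difference was -0.37 (SE 0.11, adjusted p = 0.401; 0.155 with the block). Ordered by mean, Got1 was highest in Tet2fl/fl at passage 2, then Tet2fl/fl at passage 10, Tet2-/- at passage 2 and Tet2-/- at passage 10. Values of Tet2fl/fl at passage 10 and Tet2-/- at passage 2 overlapped.

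Markers of other cell types also differed between genotypes. Averaged over both passages, 1 of the 9 progenitor markers was called lower, with or without the replicate block. With the block 1 of 5 monocyte and macrophage markers and 1 of 5 megakaryocyte markers were called higher. No neutrophil, erythroid or lymphoid marker was called there. The mean level over the 13 measured mast cell and basophil markers was 10.93 to 11.04 and 10.39 to 10.65 at passage 2 (Tet2fl/fl and Tet2-/-) and 10.89 to 11.17 and 10.22 to 10.60 at passage 10. Averaged over both passages 4 of the 13 were called lower and 0 higher, against 1.72% of all genes called. With the replicate block 6 were called lower, against 5.41% of all genes. The genotype difference was negative for 11 of the 13 at passage 2 and for 10 at passage 10. The list did not move as one. Cpa3, a mast cell carboxypeptidase, had a mean level of 13.36 and genotype differences of 0 at both passages. Itga2 had a mean of 8.32 and differences of -2.00 and -2.47. Prss34, with a mean of 10.37, had the opposite sign at both passages, 0.45 and 0.38. Of the 13, Tpsab1 had the lowest mean level, 6.96. Kit, with differences of -0.83 and -0.82, is also among the progenitor markers. The median difference of this list was -0.36 at passage 2, -0.28 at passage 10 and -0.30 on average. The eosinophil markers (6 of 8 measured, Ear1 and Ear2 not) had larger medians, -1.63, -0.51 and -1.07. Of the 6, 5 were negative at each passage. Siglecf, with a mean level of 9.45, had the opposite sign, 0.07 at passage 2 and 0.38 at passage 10. Their mean level was 8.87 to 9.13 and 7.41 to 7.60 at passage 2 (Tet2fl/fl and Tet2-/-) and 7.24 to 9.17 and 7.08 to 8.58 at passage 10. On average over passages limma called 0 of these 6, and 5 had p under 0.05 before adjustment (2720 of the 16860 genes). With the block limma called 2, both lower in Tet2-/-, against 5.41% of all genes. The part of any of these lists in the Got1 result, or in that of Mthfd2 given below, was not tested.

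Got2, the mitochondrial enzyme of the same reaction, spanned 11.99 to 12.33 over all 12 arrays. Its genotype difference was 0.02 (95% interval -0.13 to 0.18) at passage 2, -0.02 with each array set to the same median, and -0.09 (-0.25 to 0.07) at passage 10, where the genotypes did not overlap. The closest values there were 12.075 in Tet2fl/fl and 12.069 in Tet2-/-, and 16.4% of all genes did not overlap. From passage 2 to 10 Got2 differed by -0.09 in Tet2fl/fl and by -0.21 (SE 0.07, adjusted p = 0.125) in Tet2-/-, without overlap in either. In Tet2fl/fl the closest values were 12.17 at passage 2 and 12.162 at passage 10. Of all genes 14.5% did not overlap between passages in Tet2fl/fl and 28.3% in Tet2-/-. Got2 was the one gene with 2 rows, and the row not used, with a mean of 5.76 against 12.16, differed by 0.05 and 0.21 between genotypes at passages 2 and 10. Averaging both rows turned the sign at passage 10 (0.06).

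Asns, which makes asparagine from aspartate with glutamine as the nitrogen donor, read 9.004, 8.40 and 8.56 in Tet2fl/fl and 8.16, 7.85 and 8.77 in Tet2-/- at passage 2. At passage 10 it read 7.72, 7.30 and 7.95 in Tet2fl/fl and 7.38, 7.11 and 7.83 in Tet2-/-. All arrays of passage 10 except Tet2fl/fl replicate 3 lay below all arrays of passage 2, and within each genotype the passages did not overlap. The SD was 0.31 to 0.47 in the 4 groups, the widest spread among the 10 genes at passage 10. Within passage 10 replicate 2 was the lowest and replicate 3 the highest in both genotypes. From passage 2 to 10 Asns differed by -0.82 in Tet2-/- (SE 0.26, 1.77-fold, adjusted p = 0.108), a difference that passed with the replicate block (adjusted p = 0.0218). This call with the block held in 7 of 12 fits that each left out 1 array. It was lost, at adjusted p of 0.0547 to 0.0918, without Tet2-/- passage 2 replicate 1 or 3 and without each of the 3 Tet2-/- arrays of passage 10.

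In Tet2fl/fl the Asns difference between passages was as large, -1.0 (SE 0.26, 2-fold), with an adjusted p of 0.401, or 0.0585 with the block. The pairs of the same replicate number differed by -1.29 to -0.61 in Tet2fl/fl and by -0.94 to -0.74 in Tet2-/-. Between genotypes Asns differed by -0.40 (95% interval -0.97 to 0.18) at passage 2 and by -0.22 (-0.80 to 0.36) at passage 10, with overlap at both. These intervals are from the fit without the block (SE 0.26, or 0.17 with it). With the block the limma adjusted p was 0.337 and 0.635. Within pairs the genotype differences were -0.84 to 0.21 at passage 2 and -0.34 to -0.12 at passage 10. Of the mature neutrophil markers, all 10 were measured, although the sort took Gr1- CD11b- cells. Their mean level was 7.52 to 8.83 in Tet2fl/fl and 7.74 to 8.37 in Tet2-/- at passage 2, and 6.45 to 7.96 and 7.0 to 7.48 at passage 10. The passage difference was negative for 10 of 10 in Tet2fl/fl and for 6 of 10 in Tet2-/-. In Tet2-/- Ly6g (1.15), which encodes a Gr1 antigen, Mmp9 (0.26), Cxcr2 (0.19) and Itgam (0.02), which encodes CD11b, had the opposite sign. Without the block limma called 0 of the 10 in either genotype, against 0% of all genes in Tet2fl/fl and 2.98% in Tet2-/-. Before adjustment 1 in Tet2fl/fl and 5 in Tet2-/- had p under 0.05 (1722 and 3638 of the 16860 genes). With the block limma called 4 in Tet2-/-, all lower at passage 10, against 7.94% of all genes. Megakaryocyte markers (5 of 7 measured) had higher mean levels at passage 10, without overlap in either genotype. Their median difference was 0.41 in Tet2fl/fl and 0.32 in Tet2-/-, with 0 of 5 negative in each. Progenitor markers had a negative passage difference for 5 of 9 in Tet2fl/fl and 6 of 9 in Tet2-/-. Without the block limma called 0 of either list. With it, 1 megakaryocyte marker was called higher and 1 progenitor marker lower in Tet2-/-. The part of any of these lists in the Asns result was not tested.

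**Figure D2:**
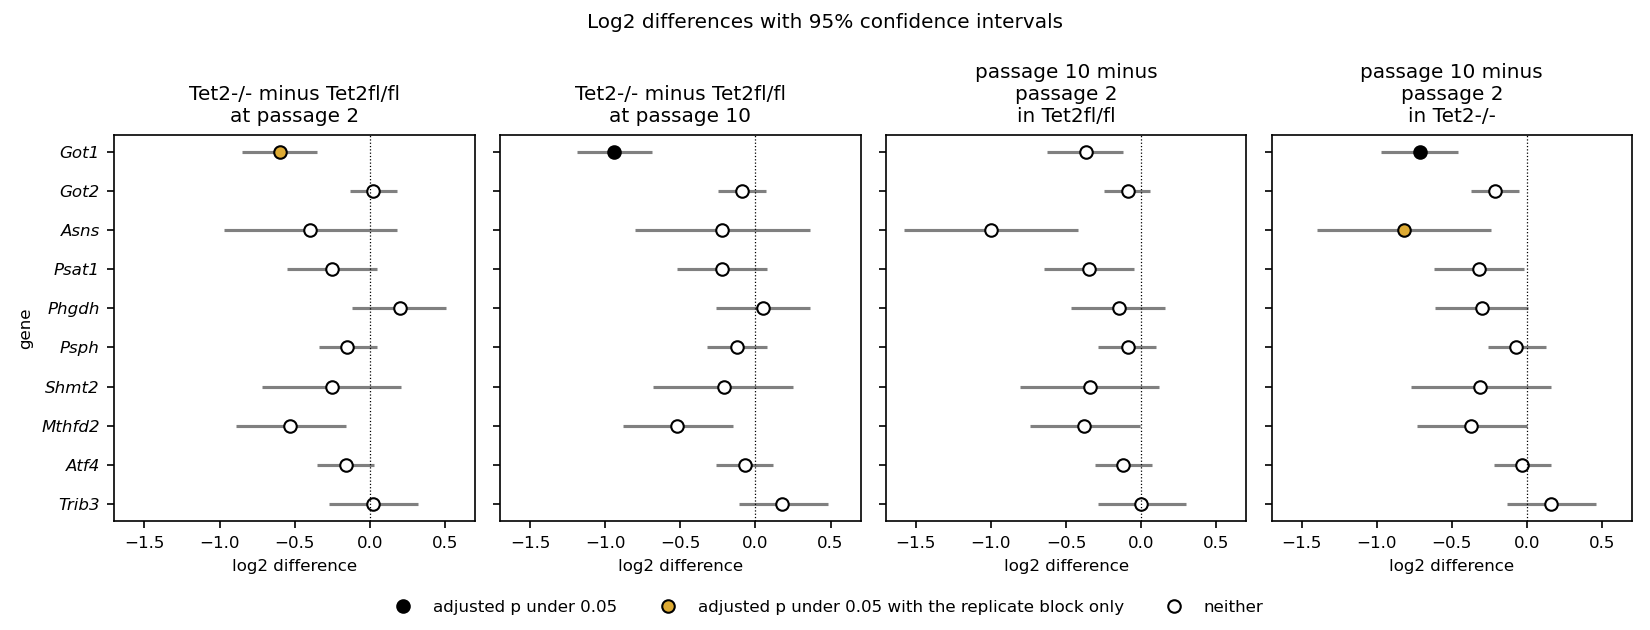
Log2 difference (horizontal axis) with its 95% confidence interval for each of the 10 genes in 4 comparisons; filled black points pass at an adjusted p under 0.05, orange points pass with the replicate block and open points do neither. Got1 is black in the genotype comparison at passage 10 (-0.94) and the passage comparison in Tet2-/- (-0.71), and Asns is orange in the latter (-0.82).

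The 3 genes of serine synthesis passed no test. Phgdh, the first enzyme of the pathway, spanned 7.52 to 7.74 and 7.66 to 8.13 at passage 2 (Tet2fl/fl and Tet2-/-) and 7.35 to 7.63 and 7.29 to 7.65 at passage 10. It was the one enzyme of the 8 with a genotype difference above 0 at both passages, 0.20 (95% interval -0.12 to 0.51) and 0.05 (-0.26 to 0.36), and the later value was -0.01 or -0.02 without Tet2fl/fl passage 10 replicate 3 or Tet2-/- passage 10 replicate 2. Psat1, the aminotransferase of the second step, spanned 9.36 to 9.56 and 8.89 to 9.50 at passage 2 and 8.95 to 9.21 and 8.77 to 8.97 at passage 10. Its genotype differences were -0.25 (-0.55 to 0.05) and -0.22 (-0.52 to 0.08), and its passage difference in Tet2fl/fl was -0.35 (adjusted p = 0.445), without overlap. Psph, the phosphatase of the last step, spanned 6.90 to 7.31 over all arrays and differed by -0.15 and -0.12 between genotypes. The serine genes therefore stood apart in sign at passage 2, with Phgdh above and Psat1 and Psph below 0, and every one of these intervals held 0.

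Mthfd2, the mitochondrial dehydrogenase and cyclohydrolase of the folate cycle, read 8.73, 8.68 and 8.48 in Tet2fl/fl and 7.96, 7.91 and 8.43 in Tet2-/- at passage 2. At passage 10 it read 7.99, 8.61 and 8.16 in Tet2fl/fl and 7.69, 7.72 and 7.79 in Tet2-/-. The genotypes did not overlap at either passage, although replicate 3 of passage 2 differed by only -0.05. The means were 8.63 ± 0.13, 8.10 ± 0.285, 8.25 ± 0.32 and 7.74 ± 0.050 (SD, n = 3). The genotype difference was -0.53 at passage 2 (SE 0.17, adjusted p = 0.328) and -0.52 at passage 10 (SE 0.17, adjusted p = 0.276). Averaged over both passages it was -0.52 (SE 0.12, 1.44-fold, adjusted p = 0.0516), lower in 6 of 6 pairs, and it passed with the replicate block (adjusted p = 0.0359). With the block that call held in 3 of 12 fits that each left out 1 array, those without Tet2fl/fl passage 2 replicate 3, Tet2-/- passage 2 replicate 3 or Tet2fl/fl passage 10 replicate 1. In the other 9 the adjusted p was 0.0517 to 0.0927. Without the block it passed in 2 of 12 such fits, without Tet2-/- passage 2 replicate 3 (adjusted p = 0.0287) or Tet2fl/fl passage 10 replicate 1 (0.0255).

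Shmt2, which splits serine into glycine and a one-carbon unit upstream of Mthfd2, spanned 10.57 to 10.72 and 9.99 to 10.97 at passage 2 and 10.08 to 10.55 and 9.97 to 10.32 at passage 10 (Tet2fl/fl and Tet2-/-). The Tet2-/- arrays of passage 2 held both the highest Shmt2 value of the study, in replicate 3, and one of the lowest, 9.99 in replicate 2, against 9.97 in Tet2-/- replicate 2 of passage 10. Its genotype differences were -0.25 (95% interval -0.72 to 0.21) and -0.21 (-0.68 to 0.25). Replicate 3 of passage 2 in Tet2-/- was also the highest of its group for Got1, Got2, Asns, Psat1, Phgdh, Psph and Mthfd2. Within replicate 3, the pair of passage 2 gave positive genotype differences for 6 of the 10 genes, Phgdh (0.52), Shmt2 (0.39), Trib3 (0.22), Asns (0.21), Psat1 (0.14) and Got2 (0.07).

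**Figure D3:**
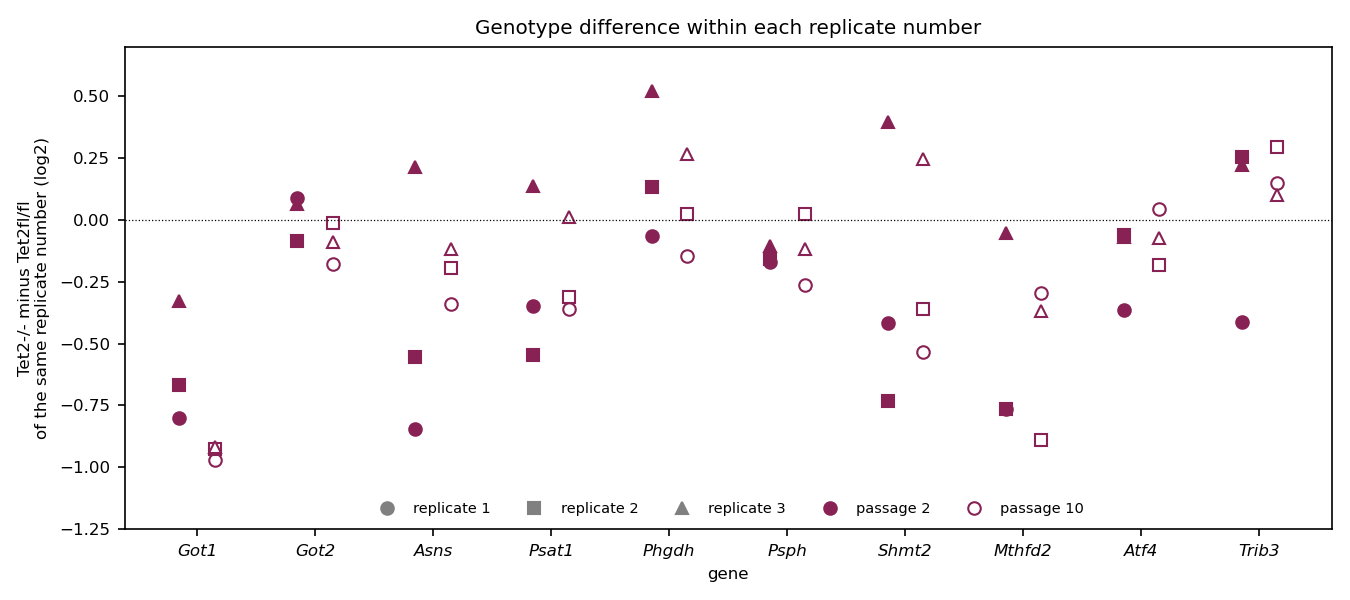
Genotype difference (vertical axis, log2, Tet2-/- minus Tet2fl/fl) between arrays of the same replicate number for each of the 10 genes; symbols give the replicate number, filled for passage 2 and open for passage 10. Got1 and Mthfd2 lie below 0 in 6 of 6 pairs, from -0.97 to -0.33 and from -0.89 to -0.05.

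Atf4 RNA spanned 8.47 to 8.73 and 8.37 to 8.41 at passage 2 and 8.38 to 8.52 and 8.31 to 8.44 at passage 10 (Tet2fl/fl and Tet2-/-). Its genotype difference was -0.16 (95% interval -0.35 to 0.03) at passage 2, where the groups did not overlap, and -0.07 (-0.26 to 0.12) at passage 10. The passage difference was -0.12 in Tet2fl/fl and -0.03 in Tet2-/-, and 0.01 or 0.02 in Tet2-/- under the other scalings. Trib3, a pseudokinase that dampens ATF4 signalling, spanned 6.82 to 7.42 and 7.01 to 7.16 at passage 2 and 6.94 to 7.14 and 7.23 to 7.24 at passage 10. It differed by 0.02 and 0.18 between genotypes (95% intervals -0.27 to 0.32 and -0.11 to 0.48). The difference at passage 2 was -0.02 with equal array medians and -0.04 after quantile normalization. At passage 10 the 3 Tet2-/- values of Trib3 lay above the 3 Tet2fl/fl values, opposite in sign to Got1 and Mthfd2.

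The counts below stand beside those of all genes. Got1 is in every count of passing members above 0. Its low value at passage 10 was known when the 10 genes were chosen. Set against all genes, these counts therefore do not show an excess among the 10. Between genotypes at passage 2, 0 of the 10 genes passed, 2 had an unadjusted p under 0.05 (1677 of the 16860 genes), and 0.00593% of all genes passed. With the replicate block 1 passed, against 0.409% of all genes. At passage 10, 1 passed (0.225% of all genes), also 1 with the block (1.31%), and 2 had an unadjusted p under 0.05 (1788 of all genes). Averaged over both passages 1 passed (1.72%), and 2 with the block (5.41%). From passage 2 to 10 in Tet2fl/fl, limma called 0 of the 10 with or without the block, while 4 had an unadjusted p under 0.05 (1722 of all genes). Of all genes 0% passed without the block and 0.0415% with it. In Tet2-/- cells 1 passed (2.98% of all genes), and 2 with the block (7.94%). No member passed for the difference between the genotype effects of the passages, 0 had an unadjusted p under 0.05, and 0% of all genes passed, or 0.00593% with the block.

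Groups that did not overlap were also common among all genes. The 10 genes were chosen with earlier results known, which bears on these counts as well. Between genotypes 3 of the 10 genes had groups that did not overlap at passage 2 (Got1, Mthfd2 and Atf4, all lower in Tet2-/-), against 15.3% of all genes, and 4 did at passage 10 (Got1, Got2 and Mthfd2 lower, Trib3 higher), against 16.4%. In both passages and in 1 direction it was 2 of 10, Got1 and Mthfd2, against 3.91%. Between passages 5 of 10 did not overlap in Tet2fl/fl (14.5%) and 6 of 10 in Tet2-/- (28.3%). In Tet2fl/fl these were Got1, Got2, Asns, Psat1 and Shmt2, all lower at passage 10, and in Tet2-/- they were Got1, Got2, Asns, Phgdh and Mthfd2, lower, and Trib3, higher. The median difference over the 10 genes was -0.21 and -0.17 between genotypes at passages 2 and 10, against -0.003 and -0.008 over all genes. Between passages it was -0.25 in Tet2fl/fl and -0.30 in Tet2-/-, against 0.031 and 0.038. Of the 10 genes, 9 had a negative passage difference in each genotype, against 42.1% and 42.4% of all genes.

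The wider pathway was read from 7 lists that hold none of the 10 genes, with 147 of 165 entries measured. Without the block, limma called 0 genes of these lists between genotypes at either passage or between passages in Tet2fl/fl. It also called 0 for the difference between the genotype effects. In these comparisons 0 to 6 genes of a list had p under 0.05 before adjustment. Of all 16860 genes, 1677, 1788, 1722 and 543 had such a p, in the same order. The calls fell in the passage comparison of Tet2-/- cells and in the average over both passages. Of all genes, 2.98% passed in the former, or 7.94% with the block. In the latter 1.72% passed, or 5.41% with the block. In Tet2-/- cells from passage 2 to 10, 2 of 22 measured ATF4 and CHOP stress response genes rose and 0 fell. The list median was 0.14, against 0.038 over all genes. Ddit4, an inhibitor of mTORC1 signalling, rose by 1.12 (SE 0.17, adjusted p = 0.0224). Its 3 arrays read 9.14 to 9.69 at passage 2 and 10.51 to 10.77 at passage 10. In Tet2fl/fl the passage difference of Ddit4 was 0.71 (adjusted p = 0.401). Ppp1r15a, the phosphatase subunit that reverses eIF2 alpha phosphorylation, rose by 0.53 (SE 0.11, adjusted p = 0.0356). Sqstm1, an autophagy receptor, passed with the block (0.37, adjusted p = 0.0743; 0.0279 with the block). These genes thus had the opposite sign to Asns and Got1 in the same comparison.

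Of 15 measured eIF2 alpha kinases and translation control genes, 2 fell in that comparison and 0 rose: Eif2b3, a subunit of the eIF2 exchange factor (-0.50, adjusted p = 0.0398), and Eif2ak2, the kinase that senses double-stranded RNA (-0.40, adjusted p = 0.0437). Of 18 measured cytosolic tRNA synthetases 1 fell and 0 rose, against 2.98% of all genes called. With the block 4 fell, against 7.94% of all genes. Farsb had a difference of -0.44 (adjusted p = 0.0367), and Tars (-0.42), Rars (-0.36) and Eprs (-0.34) passed with the block (adjusted p = 0.0332, 0.0359 and 0.0486). The list median was -0.19 there and -0.20 in Tet2fl/fl, against 0.038 and 0.031 over all genes. In Tet2fl/fl 6 of the 18 had an unadjusted p under 0.05 (1722 of the 16860 genes). Of 26 measured serine, glycine and folate genes, 2 fell and 0 rose: Slc19a1, the reduced folate carrier (-0.51, adjusted p = 0.043), and Tyms, thymidylate synthase (-0.55, adjusted p = 0.0439). With the block 3 fell and 1 rose, adding Mthfd1, the cytosolic folate enzyme (-0.64, adjusted p = 0.0245), and Sfxn3, a mitochondrial serine carrier (0.45, adjusted p = 0.0192). In Tet2fl/fl the passage differences had the same signs, -0.25 for Slc19a1, -0.42 for Tyms, -0.46 for Mthfd1 and 0.44 for Sfxn3, and passed no test, and no gene named in these lists passed for the difference between the genotype effects of the passages. The 7 genes called here without the block all missed the threshold without Tet2-/- passage 2 replicate 1 or 3, without any of the 3 Tet2-/- arrays of passage 10, and in a fit on the compared arrays alone. Several were also lost without other arrays, so that of 12 fits that each left out 1 array Ddit4 passed in 7, Ppp1r15a and Farsb in 6, Eif2b3 in 5, Eif2ak2 in 4, and Slc19a1 and Tyms in 2. Eif2b3, Eif2ak2, Farsb, Slc19a1 and Tyms also missed it with equal array medians and with no filter, and Eif2b3 and Slc19a1 after quantile normalization. Calls of list genes with the block were not refitted without single arrays.

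Averaged over both passages, limma called 0 of 22 ATF4 and CHOP genes, with 7 at p under 0.05 before adjustment, where 2720 of all 16860 genes were. With the block 3 were called, against 5.41% of all genes, all higher in Tet2-/-: Ddit4 (0.49, adjusted p = 0.0313), Nfil3 (0.47, 0.031) and Stc2 (0.34, 0.0387). Stc2 also passed with the block at passage 10 (0.60, adjusted p = 0.0376). Mthfd1l, the mitochondrial partner of Mthfd2 that releases formate, was higher with the block both at passage 10 (0.71, adjusted p = 0.224; 0.0326 with the block) and averaged (0.55, adjusted p = 0.0812; 0.0108 with the block). Mthfd2 and Mthfd1l thus had opposite signs. Dele1, which relays mitochondrial stress to the eIF2 alpha kinase of heme deficiency, was lower with the block (-0.29, adjusted p = 0.0467). Ern1, an endoplasmic reticulum stress sensor, rose by 0.35 (SE 0.07, adjusted p = 0.0288). It was 1 of 24 measured ATF6 and XBP1 genes to pass, against 1.72% of all genes. It passed in 3 of 12 fits that left out 1 array, without Tet2-/- passage 2 replicate 3, Tet2fl/fl passage 10 replicate 1 or Tet2-/- passage 10 replicate 1, with adjusted p up to 0.0871 in the others.

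Of 24 measured aspartate, glutamate and shuttle genes, 1 fell on average over both passages and 0 rose, against 1.72% of all genes called. This was Aspa, the enzyme that splits N-acetylaspartate (-1.30, SE 0.21, adjusted p = 0.0139), which also passed without any 1 array (adjusted p = 0.00209 to 0.0459). Aspa read 6.12 to 7.06 in Tet2fl/fl and 4.38 to 4.48 in Tet2-/- at passage 2, and 4.22 to 5.55 and 4.43 to 4.52 at passage 10, so its low values were under 4.70, the level below which rows were left out. The part of the eosinophil markers, whose levels are given beside Got1, was not tested for Aspa either. At passage 2 alone Aspa differed by -2.07 (SE 0.30, adjusted p = 0.0655; 0.0302 with the block). At passage 10 alone it differed by -0.53 (SE 0.30, adjusted p = 0.582; 0.41 with the block), so the average rested mostly on passage 2. The genotype difference at passage 10 minus that at passage 2 was 1.53 (adjusted p = 0.999). No other gene of the list passed in any comparison, with or without the block. No amino acid transporter of 18 measured passed, with 4 at an unadjusted p under 0.05 in the averaged comparison (2720 of all genes). The smallest adjusted p were those of Slc7a1, a carrier of cationic amino acids (passage difference in Tet2-/- of -0.54, adjusted p = 0.0623), and Slc36a4 (average genotype difference of 0.30, adjusted p = 0.0737).

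**Figure D4:**
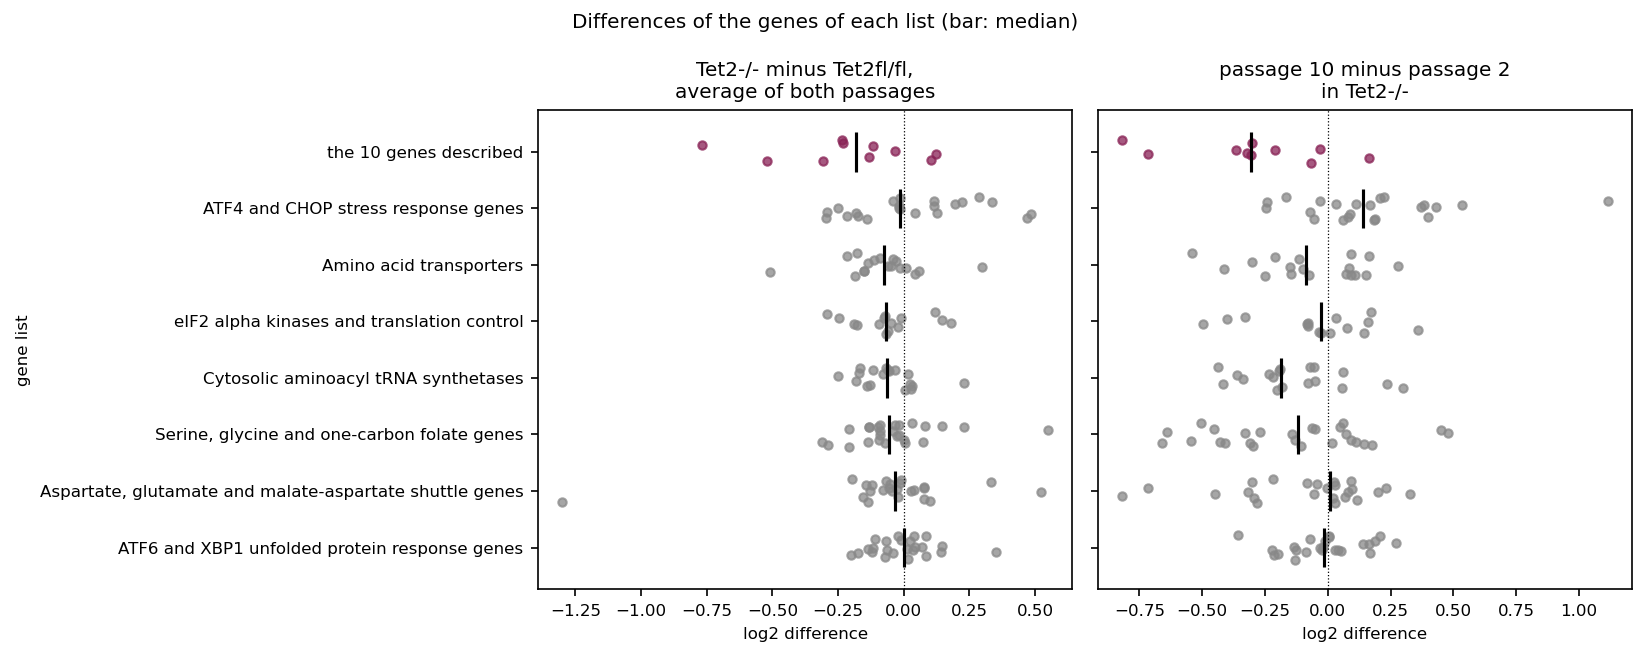
Log2 differences (horizontal axis) of each measured gene of the 10 described and of the 7 lists, averaged over both passages between genotypes (left) and between passages in Tet2-/- (right); points are genes, spread vertically for legibility, and the bar is the median. The medians of the 10 genes are -0.18 and -0.30, and those of the ATF4 and CHOP genes -0.01 and 0.14.

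Genes whose profile over the 12 arrays was most like that of Got1, by root mean square distance in log2 units between profiles centred on their own mean, were Eef1akmt1 (0.163), Crispld2 (0.205) and Mthfd2 (0.216). The spread of Got1 about its own mean was 0.493 by the same measure. Eef1akmt1 differed between genotypes by -0.44 and -0.82 at passages 2 and 10, and Crispld2 by -0.42 and -0.89. The nearest of the 10 genes to Got1 was thus Mthfd2, while its mitochondrial counterpart Got2 ranked 1876 and Trib3 13542 among all genes. For Asns the nearest were Plk1 (0.26), Fancd2 (0.281) and H2ax (0.285), against a spread of 0.571, with passage differences in Tet2-/- of -0.56, -0.80 and -0.71. The nearest member to Asns was Shmt2 at 0.384, in rank 169. For Mthfd2 they were Erlin1 (0.174), Hsd17b7 (0.186) and Psat1 (0.194), against a spread of 0.37.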

How the data were processed

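RNA from 12 samples (4 groups of 3) was measured on 1 array each, from 100 ng of total RNA. The authors deposited log2 values made by RMA in Affymetrix Power Tools, per the submitters' processing notes. No version of it is named in the sources used here. RMA brings arrays to a common distribution, so a shift of all RNA is not seen, and the number of arrays limits the precision. Of 41345 rows, 28941 with a mean of at least 4.70 (the 30th percentile) were kept, and all 10 genes described passed this filter, which uses the mean over all arrays. Symbols came from the probe annotation, updated by gene ID (23328 of 23521 rows with 1 symbol), with the row of highest mean per gene. One mean per group was fitted with limma 3.58.1 in R 4.3.3 (lmFit, eBayes, two-sided, Benjamini-Hochberg over 16860 genes). The fit was also run on simulated data with independent noise on each array. That run does not cover arrays that deviate together, as those described next do. The labels number replicates 1 to 3 in each group. Arrays of the same number deviated together from their group means (correlation 0.201 to 0.517 over 18 pairs, -0.369 to 0.0532 over 36 pairs of different numbers), so the numbers were taken to pair the arrays, from the data and not from a stated design, and the blocked value is given where it changes a call or a count.

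The members, lists and markers were chosen with earlier results of these data known. All 10 genes are named. From each list, genes passing with or without the block are named, at most 6, or the 2 with the smallest adjusted p where none passed. Of the list entries, 18 were not measured, 4 of them below the filter. Alternatives were other scalings, other filters, array weights, the replicate block, averaged rows, fits on the compared arrays only, and leaving out each array. Promoter sequences are RefSeq's (GRCm38.p6).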

Additional observations from a re-analysis of the deposited data

How the results depend on the processing

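Of 460 values of single genes (10 genes, 6 comparisons) under settings other than leaving out an array, 441 kept their direction and side of the threshold, 7 gained a call, 2 lost one and 10 changed sign; the cause was not tested unless named. Got1 at passage 10 kept its call under all of these settings except one: in fits on only the compared arrays, which have fewer samples, 0 of the 10 genes passed at passage 10 and 0 in the passage comparison of Tet2-/- (Got1 adjusted p = 0.102 and 0.0603). With array weights Got1 passed at passage 2 (-0.71, adjusted p = 0.0416), so that 1 member passed there, as with the replicate block (1). In the passage comparison of Tet2-/- 2 members passed with the block, Got1 and Asns (adjusted p = 0.0218). For the average over passages 2 passed with equal medians, a filter at the 50th percentile, array weights or the replicate block, Mthfd2 being the second (adjusted p = 0.0346, 0.0415, 0.0162 and 0.0359). The block changed no other member's call. The changes of sign were Got2 at passage 2 (-0.02 with equal medians), Trib3 at passage 2 (-0.02 with equal medians, -0.04 after quantile normalization), Psph between passages in Tet2-/- (0.07 after quantile normalization), Atf4 there (0.01 and 0.02 under both scalings), Psph for the difference between passages' genotype effects (-0.02 with array weights), and Got2 with both rows averaged at passage 10 (0.06), for that difference (0.02) and on average (0.05).

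Leaving out 1 array, 0 to 1 members passed in the passage comparison of Tet2-/- and 1 to 2 on average over passages. With the block and 1 array left out, chosen after seeing the data, these were 1 to 2 and 1 to 3, 0 to 1 at passage 2 and 0 to 1 between passages in Tet2fl/fl. Sign changes occurred in 33 such fits over 12 results, at sizes up to 0.17. Their ranges were: at passage 2, Got2 -0.02 to 0.07 and Trib3 -0.09 to 0.21; at passage 10, Phgdh -0.02 to 0.16; between passages, Trib3 in Tet2fl/fl -0.11 to 0.19 and Psph in Tet2-/- -0.14 to 0.00. For the difference between genotype effects they were Asns -0.03 to 0.43, Psat1 -0.12 to 0.18, Phgdh -0.23 to 0.01, Psph -0.05 to 0.10, Shmt2 -0.17 to 0.32, Mthfd2 -0.12 to 0.19 and Trib3 -0.03 to 0.27.

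Over all genes the counts moved more. At passage 2, 1 gene passed, and 2 with the 50th percentile filter, 49 with array weights, 69 with the block, 28 with the compared arrays alone and 0 to 9 without 1 array. At passage 10 it was 38, and 61, 97, 221, 3 and 12 to 70 in the same order. Between passages in Tet2fl/fl it was 0, or 7 with the block. In Tet2-/- it was 503, and 327 with equal medians, 218 with no filter, 757 with the 50th percentile filter, 1728 with array weights, 1339 with the block, 0 with the compared arrays alone and 0 to 483 without 1 array. The share higher at passage 10 there was 41.9%, and 60.2% or 59.9% with equal medians or quantile normalization. On average over passages it was 290, and 776 with array weights, 912 with the block and 98 to 496 without 1 array, with 38.3% higher in Tet2-/-, or 23.3% with equal medians. For the difference between genotype effects it was 0, or 1 with the block. Scaling moved the median of all genes by under 0.1 in each comparison.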
